A study of Drosophila melanogaster with 6 samples.

Results

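The 8 genes described here serve the Malpighian tubules, the excretory organs of insects, or belong to transporter families that work there. They are Uro, Smvt, ZnT35C, Picot, Irk1, Irk2, Irk3 and Drip, and all 8 were found by name among the 14862 genes of the table. The genes were chosen from knowledge of tubule physiology with the fold changes of this same comparison already known, so their fold changes and adjusted p-values are a description and no test. From general knowledge of adult fly tissues, which was not measured here, Uro, Smvt, ZnT35C and Irk3 were grouped as tubule-restricted and Picot, Irk1, Irk2 and Drip as broadly expressed.

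The study compared Drosophila melanogaster embryos of mothers whose germ line carried reduced insulin signalling with control embryos. The 6 samples form 2 groups of 3. One group came from oocytes expressing InR-DN, a dominant-negative insulin receptor, and the GFP control group came from oocytes expressing green fluorescent protein. The sources used here do not give the driver of these transgenes. Each sample was RNA from 200 embryos labelled 16-20 hr, from flies kept on standard food with yeast paste. Nothing in the labels tells if replicates were separate crosses, so the spread that the p-values measure may be technical. The authors' fit also took in libraries outside this comparison (below), and these may have entered that spread.

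The file used is the authors' deposited table of an edgeR likelihood ratio test, which has 1 row per gene and no value per sample. It does not say which group is the numerator. A gene is therefore assigned a positive or a negative side by the sign of its deposited log2 fold change, and which of InR-DN and GFP is which side is not stated. The average levels in the table are in CPM, read counts scaled to library size but not to transcript length, so levels are not compared between genes. Genes with a single read showed that 12 libraries entered the authors' fit, 3 of the positive side, 3 of the negative and 6 that took no part in the fold change. Effective library sizes ran from 25700000 to 40500000 reads on the positive side and from 23400000 to 31100000 reads on the negative side.

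Marker genes were checked against the label of late embryos. Cuticle genes, taken by the name prefixes Cpr and Twdl whatever their stage, were mostly scarce. The highest CPM that either side could hold had a median of 0.0789 over 56 Cpr genes and of 0.0301 over 14 Twdl genes. Of the Cpr genes 10 could exceed 1 CPM, the highest at 3.56 CPM, and of the Twdl genes 0 could. The 4 neuronal genes were split: nSyb, Syt1 and brp could reach at most 0.690, 0.229 and 1.12 CPM, while elav averaged 131 CPM over the 12 libraries and could reach 293 CPM. Of the 4 muscle genes, Mhc, Mlc2 and Act57B could reach at most 7.17, 5.03 and 64.2 CPM and Tm1 1103 CPM. The eggshell genes Cp36 and Cp38, made in the ovary, averaged 3544 and 4643 CPM over the 12 libraries, the yolk protein genes Yp1, Yp2 and Yp3 averaged 1365, 1519 and 502 CPM, and how these reads divide between compared and other libraries is not given by the table. Of 13 genes listed as tubule markers, 4 of them members, 12 averaged 1 CPM or more over the same 12 libraries. This average takes in the 6 libraries outside the comparison. The 3 of these markers with the lowest limits on the positive side were Uro, Oatp58Db and CapaR, at most 0.263, 0.435 and 0.807 CPM. Their negative side could reach at most 5.55, 3.67 and 4.21 CPM. The highest limits of the other markers on the positive side ran from 1.32 CPM for SecCl to 349 CPM for tsh. SecCl, ClC-a and ct had log2 fold changes of positive sign, 0.21, 0.22 and 0.32 in the authors' deposited table, and the rest of negative sign.

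Malpighian tubules secrete an ion-rich fluid and pass waste into it. In the principal cells of the main segment a proton pump and potassium channels drive potassium secretion, while stellate cells carry chloride and water. Urate, the end product of purine breakdown in many insects, is oxidised further in flies by urate oxidase, which Uro encodes, and Uro is known to be transcribed in the tubules of late larvae and adults. Zinc, phosphate and vitamins are moved by dedicated carriers in the same epithelium.

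Uro, Smvt and Irk2 lay on the negative side past the authors' threshold, and the other 5 genes did not pass it. By the authors' deposited table, 3 of 8 members had a Benjamini-Hochberg adjusted p under 0.05 in the edgeR test, all 3 of negative sign and 0 of positive sign. The background is 667 of 14862 genes (4.49%) on either side, with 2.19% on the negative and 2.30% on the positive side. Since the comparison itself entered the choice of genes, nothing is read from the difference between these shares. Among the 8, the authors' deposited table gives log2 fold changes that ran from -4.38 to 0.50 with a median of -0.34, beside a median of 0.00 over all genes. Each gene's log2 fold change, divided by the root of its likelihood ratio statistic, gave an implied SE (written SE below), which ran from 0.21 to 0.42 over the members. In whole-embryo RNA, fewer cells of a type and less RNA per cell cannot be told apart.

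**Figure D1:**
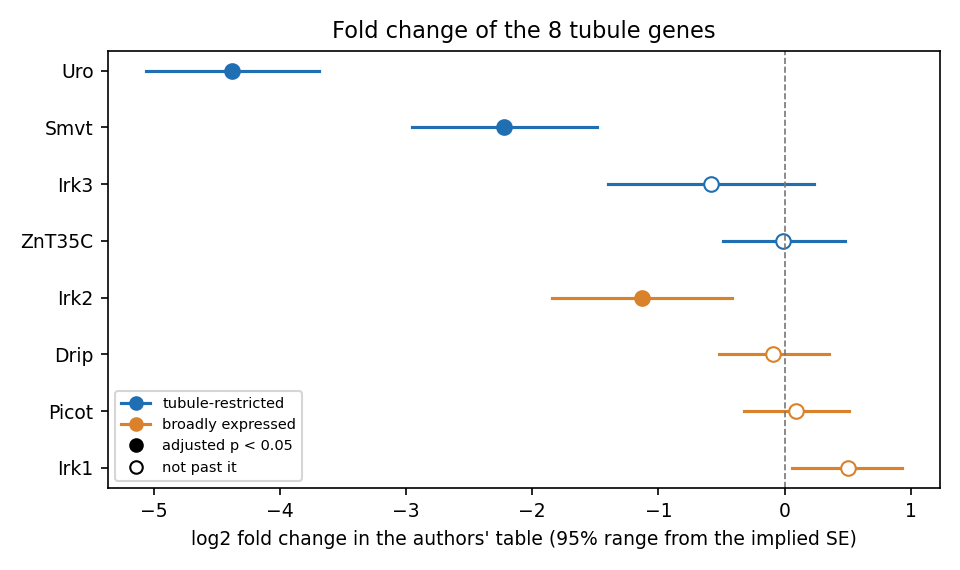
Log2 fold change in the authors' deposited table (x axis) for the 8 genes, with lines for the 95% range computed from the implied SE; filled points have an adjusted p under 0.05, blue marks tubule-restricted and orange broadly expressed genes. Uro at -4.38 and Smvt at -2.22 lie apart from ZnT35C at -0.01, although all 3 are in the tubule-restricted class.

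Urate oxidase, encoded by Uro, catalyses the oxidation of urate in peroxisomes. Its log2 fold change in the authors' deposited table was -4.38 (SE 0.35), a 20.8-fold difference, with edgeR-adjusted p = 1.30e-33. The 95% range from the implied SE runs from 12.9-fold to 33.3-fold. No value per sample is in the table, but the level of Uro on each side could be bounded. The highest level, reached if the 6 other libraries held no Uro read, was 0.263 CPM on the positive side and 5.55 CPM on the negative side. An approximate lowest level, at which counting noise alone would account for the SE, was 0.176 CPM on the positive and 3.65 CPM on the negative side. These limits correspond to 18.2 to 27.2 reads over the 3 positive-side libraries and 307 to 467 reads over the 3 negative-side libraries. By these limits Uro lay below 1 CPM on the positive side and above 1 CPM on the negative side.

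No other gene of the urate list passed the threshold. Of 15 other genes of purine synthesis and of the steps to urate, 0 passed the edgeR threshold in the authors' deposited table, 2 had a raw p under 0.05, and the median log2 fold change of the 15 was 0.00. The gene ry, encoding xanthine dehydrogenase, the enzyme that makes urate, had -0.73 (SE 0.36) in the authors' deposited table, with edgeR-adjusted p = 0.423. Adenosine deaminase, encoded by Ada, had -0.50 (SE 0.22) and the secreted adenosine deaminase Adgf-A had -0.28 (SE 0.26) in the authors' deposited table. The genes mal and cin serve the molybdenum cofactor of xanthine dehydrogenase, and their values in the authors' deposited table were 0.04 (SE 0.20) and 0.06 (SE 0.25). The synthesis gene Prat, encoding the enzyme of the first committed step, had 0.00 (SE 0.18) in the authors' deposited table.

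Smvt is named for the sodium-dependent multivitamin transporter, which in mammals carries biotin and pantothenate. It had a log2 fold change of -2.22 (SE 0.37) in the authors' deposited table, a 4.67-fold difference with a 95% range of 2.82-fold to 7.75-fold, and edgeR-adjusted p = 1.98e-07. Its average was 47.8 CPM over the 12 libraries, and its level could be bounded only widely, at 0.855 to 157 CPM on the negative side and 0.183 to 33.6 CPM on the positive side. The lowest limits stand for 71.9 reads over the negative-side and 18.9 reads over the positive-side libraries. Of 6 other genes of biotin use, 1 passed the edgeR threshold, the gene listed as Btd and annotated as biotinidase (Btnd), an enzyme that frees biotin for reuse, with -2.05 (SE 0.63, adjusted p 0.0290) in the authors' deposited table. Holocarboxylase synthetase, encoded by Hcs, which attaches biotin to carboxylases, had -0.01 (SE 0.20) in the authors' deposited table. Acetyl-CoA carboxylase, a biotin enzyme encoded by ACC, had 0.45 (SE 0.18) with edgeR-adjusted p = 0.215 in the authors' deposited table.

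Sodium-solute carriers of the SLC5 family, to which Smvt belongs, were called on both sides. All 15 genes that the annotation names dSLC5A were in the table. Of the 14 besides Smvt, 4 passed the edgeR threshold with a negative and 1 with a positive sign in the authors' deposited table. Of all genes, 2.19% and 2.30% did so. The median log2 fold change of the 14 was -0.80. It takes in CG5687, CG9657, CG31668 and CG33124, which could hold 3 reads or fewer on the lower side. On the negative side were CG42235, named kumpel, with -2.88 (SE 0.35), CG7720 with -2.49 (SE 0.30) and salt with -2.06 (SE 0.40) in the authors' deposited table. CG5687 was also called there, but its positive side could hold no more than 0.0425 reads and no fold is given. CG2187 lay on the positive side with 1.66 (SE 0.30, edgeR-adjusted p = 1.97e-06) in the authors' deposited table.

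Smvt, CG2187 and salt lie close together on the chromosome, by the gene order of Release 6. The order is salt, CG2187, the noncoding gene CR44263 and Smvt, with no other annotated gene between them, tRNA and miRNA genes left aside. None of the 3 nearest genes on each side overlaps Smvt. Along this row the authors' deposited table gives log2 fold changes of -2.06 for salt, 1.66 for CG2187, 2.03 (SE 0.46) for CR44263 and -2.22 for Smvt, each past the edgeR threshold. The difference between Smvt and CG2187 was -3.89 on the log2 scale, against a combined SE of 0.48, and it is given without a test. On the other side of Smvt, CG2150 had -1.99 (SE 0.76, edgeR-adjusted p = 0.151) in the authors' deposited table. Adjacent family members thus lay on opposite sides, and reads shared between them by sequence likeness could not be checked.

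**Figure D2:**
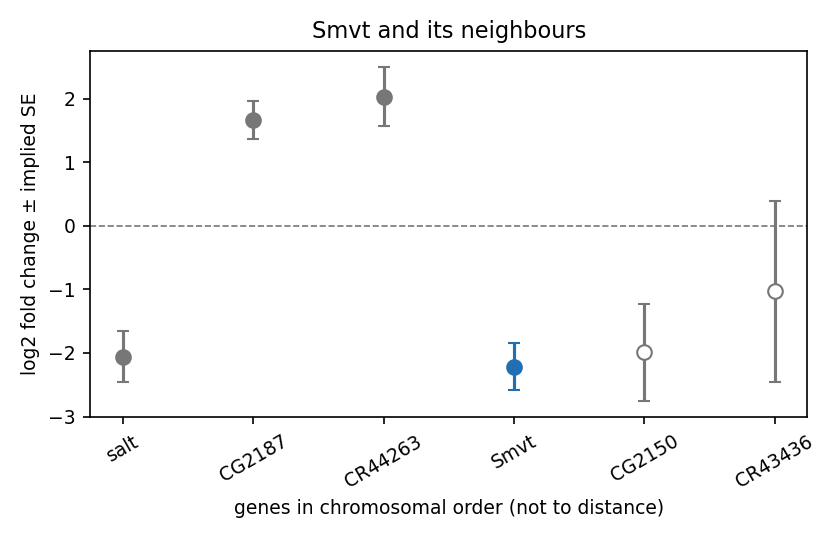
Log2 fold change in the authors' deposited table with the implied SE (y axis) for Smvt, in blue, and its neighbours in chromosomal order, not drawn to distance; filled points have an adjusted p under 0.05 and genes with 3 or fewer reads on a side are left out. The values go from -2.06 at salt to 1.66 and 2.03 at CG2187 and CR44263 and back to -2.22 at Smvt.

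Elsewhere, 0 neighbours were called on the negative side. Among the 3 nearest genes on each side of all 8 members, tRNA and miRNA genes left aside, 42 were in the table. Of these neighbours 1 was called on the negative and 4 on the positive side, beside 2.19% and 2.30% of all genes. The negative one was salt, and 2 of the positive ones were CG2187 and CR44263. The remaining positive ones were CG7191, near Uro, and CG34457, near Picot. No fold is given for CG7191, which had at most 2.94 negative-side reads.

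Inwardly rectifying potassium channels, which let potassium enter principal cells from the blood side, are encoded in flies by Irk1, Irk2 and Irk3, and the 3 genes were spread over both sides. Irk2 had a log2 fold change of -1.13 (SE 0.36) in the authors' deposited table, a 2.19-fold difference with edgeR-adjusted p = 0.0413. It was scarce, at 0.528 to 0.841 CPM on the negative side and 0.241 to 0.382 CPM on the positive side, or 44.4 to 70.8 reads against 24.9 to 39.5 reads over 3 libraries. With an adjusted p under 0.01, with genes averaging under 1 CPM left out, or with Holm's adjustment, Irk2 was not called. Irk1 lay on the opposite side with 0.50 (SE 0.22) in the authors' deposited table, a raw p of 0.0244 and edgeR-adjusted p = 0.310. Irk3, the tubule-restricted channel, had -0.58 (SE 0.42) in the authors' deposited table, with edgeR-adjusted p = 0.877 and a 95% range from -1.40 to 0.23. The range for Irk3 therefore takes in both no difference and a difference as large as that of Irk2. Irk1 exceeded Irk2 by 1.63 on the log2 scale with a combined SE of 0.42, a difference given without a test. Irk3 overlaps Grip71 and Irk1 overlaps cnc in the annotation, and reads of overlapping genes could not be told apart.

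**Figure D3:**
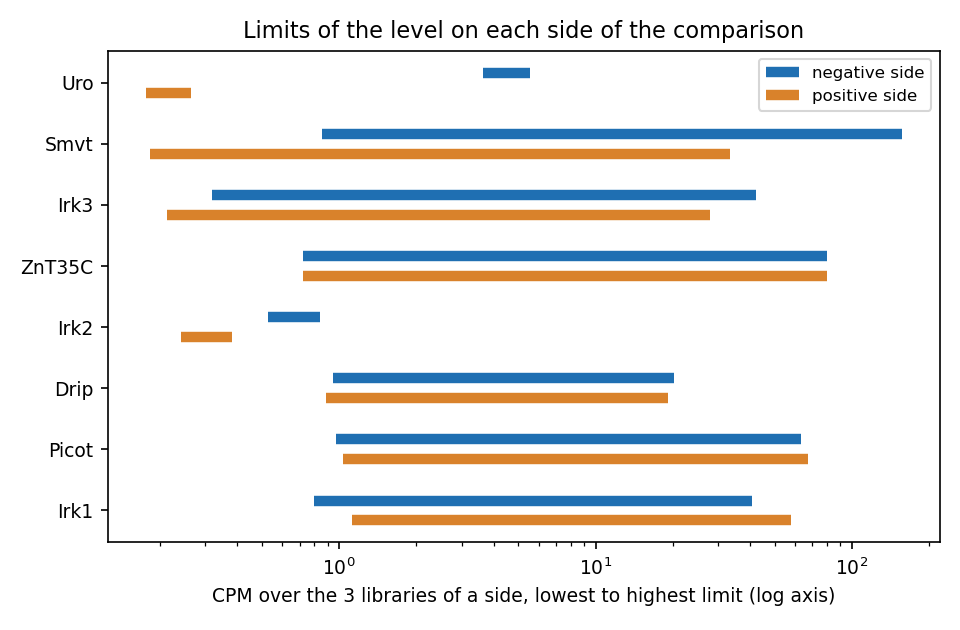
Lowest to highest CPM (x axis, log scale) that the 3 libraries of the negative side (blue) and of the positive side (orange) could hold for each gene. The limits of the 2 sides do not meet for Uro, 3.65 to 5.55 against 0.176 to 0.263, or for Irk2, and they overlap for the other 6 genes. Both sides' limits are tied by the deposited fold change. Whether they meet depends on their width beside that fold and is no test of a difference. Smvt, which was called, is among the genes that overlap.

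ZnT35C, Picot and Drip did not pass the threshold. The zinc transporter gene ZnT35C, known for zinc storage in the tubule, had a log2 fold change of -0.01 (SE 0.25) in the authors' deposited table, with edgeR-adjusted p = 1.00. Its 95% range ran from -0.49 to 0.48, which leaves out 2-fold differences in either direction, at an average of 40.2 CPM over the 12 libraries. Picot, a carrier of the sodium-dependent phosphate cotransporter family, had 0.09 (SE 0.21) in the authors' deposited table, with a 95% range from -0.32 to 0.51. Drip, a water channel of stellate cells and other epithelia, had -0.09 (SE 0.22) in the authors' deposited table, with a 95% range from -0.52 to 0.35. The ranges of Picot and Drip likewise stop short of a 2-fold difference. Drip overlaps CG7763 in the annotation, so reads of the 2 genes may be mixed.

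**Figure D4:**
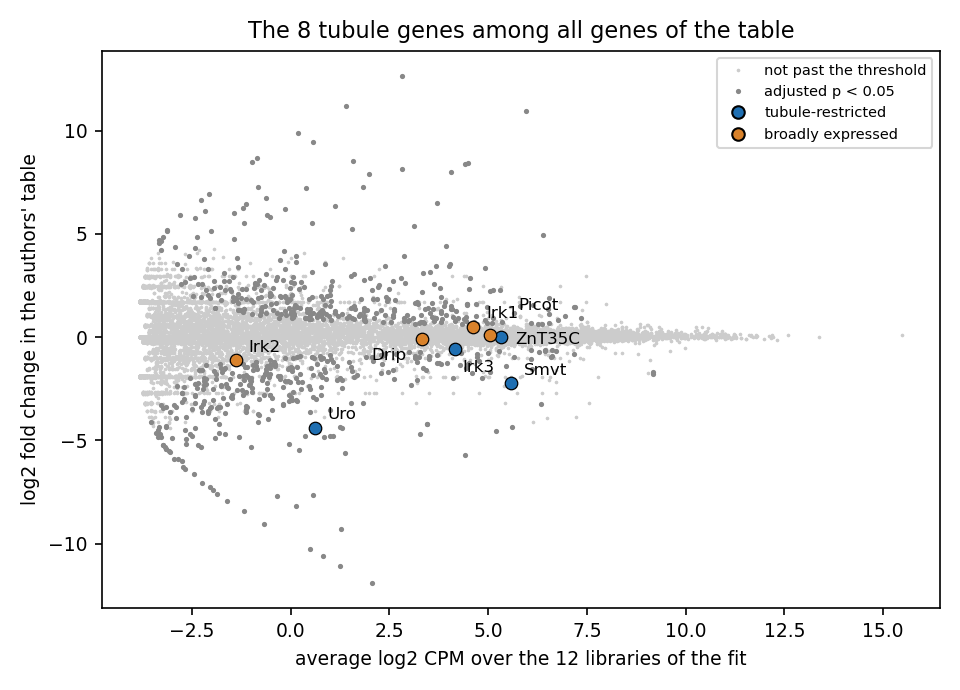
Log2 fold change (y axis) against average log2 CPM over the 12 libraries of the fit (x axis) in the authors' deposited table, for all 14862 genes in grey and the 8 genes in colour. Uro (-4.38) and Smvt (-2.22) are the lowest of the 8, and ZnT35C, Picot and Drip lie within 0.09 of 0.

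The tubule-restricted and broadly expressed classes had different medians, and genes within each class were spread widely. In the authors' deposited table the tubule-restricted class had 2 of 4 genes called on the negative side, a median log2 fold change of -1.40 and a range from -4.38 to -0.01. The broadly expressed class had 1 of 4 called on the negative side, a median of 0.00 and a range from -1.13 to 0.50. Of all genes, 2.19% were called on that side. The difference of medians was -1.41 and became -0.68 with Drip counted as tubule-restricted, as its stellate cell role would also allow. No test is given because the members were chosen with these values known. Within the tubule-restricted class, Uro minus ZnT35C was -4.37 on the log2 scale, with a combined SE of 0.43.

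No relative of ZnT35C or Drip passed the threshold. Of 16 other zinc transporters of the ZnT and Zip families 0 passed the edgeR threshold and 3 had a raw p under 0.05, and the median log2 fold change was 0.03 in the authors' deposited table. These 3 were Zip71B with -1.21 (SE 0.47), Zip89B with 0.74 (SE 0.29) and ZnT41F with 0.70 (SE 0.35) in the authors' deposited table. ZnT33D, Zip42C.1 and Zip42C.2 could hold at most 4.99, 2.97 and 1.97 positive-side reads and fewer on the negative side. Of 6 other aquaporin genes 0 passed and 0 had a raw p under 0.05 in the edgeR test. Eglp1 and Eglp3, listed as CG5398 and CG17662, could hold at most 2.23 and 0.554 positive-side reads and fewer on the negative side. Both had a log2 fold change of 0.00 and a likelihood ratio statistic of 0 in the authors' deposited table, as would a gene without reads in the compared libraries. For genes with so few reads the lack of a call says little. Prip, a water channel gene listed as CG7777 and the third gene from Drip, had 0.15 (SE 0.20) in the authors' deposited table. Eglp4 and Eglp2, listed as CG4019 and CG17664, had 0.88 (SE 0.54) and 0.43 (SE 0.67) in the authors' deposited table.

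Among 13 other carriers that the annotation names MFS, like Picot, or that are known as NaPi-T, VGlut and dmGlut, 1 passed, on the positive side. It was CG30272, named MFS1, with 8.37 (SE 0.77) in the authors' deposited table. The phosphate carrier gene NaPi-T had -0.79 (SE 0.34) with edgeR-adjusted p = 0.267 in the authors' deposited table. VGlut had 0.00 there with a likelihood ratio statistic of 0, as would a gene without reads in the compared libraries.

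Genes of ion transport, its hormones and tubule development held 2 calls besides Irk2. Of 13 ion transport genes other than the Irk genes, 0 passed the edgeR threshold and 1, the sodium-proton antiporter gene Nha2, had a raw p under 0.05, with -0.80 (SE 0.39) in the authors' deposited table. The sodium pump subunits Atpalpha and nrv2 had 0.14 (SE 0.24) and 0.27 (SE 0.19), and the chloride channel gene ClC-a had 0.22 (SE 0.22), in the authors' deposited table. Of 9 genes of diuretic peptides and their receptors, 1 passed on the positive side, the receptor gene Dh44-R2 with 2.51 (SE 0.32) in the authors' deposited table. Capa, Lk and Dh44-R1 could hold at most 0.550, 5.95 and 3.90 positive-side reads and fewer on the negative side. These genes and Dh31 had a log2 fold change of 0.00 and a likelihood ratio statistic of 0 in the authors' deposited table. A gene without reads in the compared libraries would have such values, so the lack of a call for them says little. The receptor gene CapaR, whose product acts in principal cells, had -2.38 (SE 0.92) in the authors' deposited table and did not pass the edgeR threshold. Of 12 genes of tubule development, 1 passed on the negative side, byn, a T-box factor gene of the hindgut primordium, with -4.68 (SE 1.26) in the authors' deposited table. The homeobox gene ct, needed for tubule identity, had 0.32 (SE 0.26) and the zinc finger gene Kr had -2.19 (SE 1.18) in the authors' deposited table, neither past the edgeR threshold. The SE was also large for Doc1, 1.33 at an average of 63.3 CPM, and Doc3, 1.47 at 44.3 CPM, though 0.32 for tsh. Its median was 0.23 over genes of 16 CPM or more. With an SE above 1 the lack of a call leaves large differences possible, and the spread between replicates could not be seen. Nephrocytes, the filtering cells of the blood, were followed by 5 genes, of which kirre was called on the negative side with -1.01 (SE 0.21) and Cubn on the positive side with 0.91 (SE 0.21) in the authors' deposited table. The nephrocyte gene Klf15, listed as Bteb2, also had 0.00 with a likelihood ratio statistic of 0 in the authors' deposited table. Over all 11 families together, 11 of 108 genes besides the members (10.2%) were called, beside 4.49% of all genes. Of these calls, 7 were on the negative and 4 on the positive side. The SLC5 family held 4 of the negative and 1 of the positive ones. The lists were chosen with earlier results of these data known, so nothing is read from the difference of shares. The median log2 fold change of the 108 genes was 0.00 in the authors' deposited table.

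**Figure D5:**
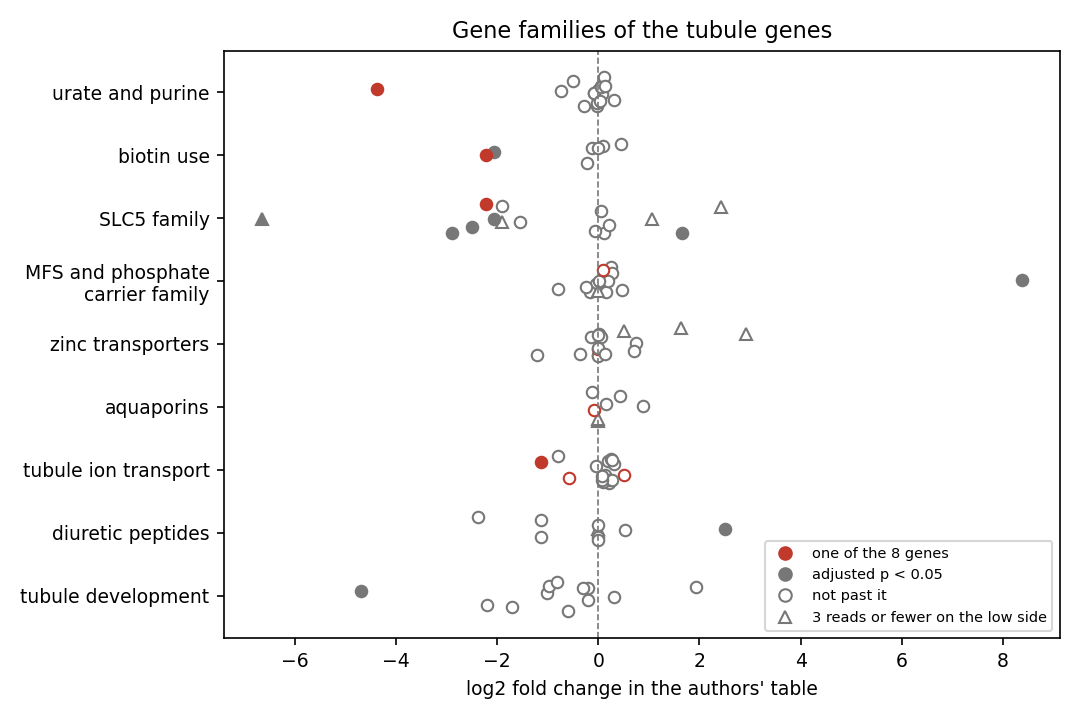
Log2 fold change in the authors' deposited table (x axis) for each gene of 9 families (rows, scattered vertically for view); red marks the 8 genes, filled symbols an adjusted p under 0.05 and triangles genes that could have 3 reads or fewer on the lower side. The SLC5 row holds 5 negative calls and 1 positive, and the zinc transporter and aquaporin rows have none.

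Markers of other tissues were called in the same comparison. Of 9 tubule markers besides the members 3 were called on the negative side, the organic anion transporter genes Oatp58Da, Oatp58Db and Oatp58Dc with -1.50 (SE 0.37), -3.06 (SE 0.55) and -3.26 (SE 0.34) in the authors' deposited table. These 3 genes are of the same family, and reads shared between them by sequence likeness could not be checked. The other 6, Aph-4, CapaR, SecCl, ClC-a, tsh and ct, did not pass, and Aph-4, encoding an alkaline phosphatase of the tubule, had -0.47 (SE 0.22) in the authors' deposited table. On the positive side were 7 of 7 midgut markers, all genes of digestive enzymes. The marker lists were chosen with earlier results of these data known, so these counts are a description and no test. Of all genes, 2.19% were called on the negative and 2.30% on the positive side. The authors' deposited table gives log2 fold changes of 8.43 for Jon25Bi, 8.12 for Jon99Ci, 6.49 for betaTry, 4.39 for alphaTry, 2.85 for Amy-p and 2.29 for Mal-A1, and no fold is given for LysB, which had at most 2.15 negative-side reads. Of 5 fat body markers 2 were called, also on the positive side, Lsp2 with 3.73 (SE 0.39) and Lsp1beta with 2.71 (SE 0.63) in the authors' deposited table. Of 4 muscle, 4 neuron and 5 ovary and eggshell markers 0 were called in the edgeR test, and 1, the muscle gene Act57B, had a raw p under 0.05. The smallest raw p of each list belonged to Act57B with 0.55 (SE 0.24), brp with -0.47 (SE 0.41) and Yp1 with 0.51 (SE 0.41) in the authors' deposited table. Summed levels of these lists per group are not given by the table, and their part in the values of Uro, Smvt and Irk2 was not tested.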

How the data were processed

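RNA was measured in 6 samples, grouped by their titles. Per the labels' protocols RNA was extracted with TriPure and libraries were made with a stranded TruSeq total RNA kit, while the descriptions speak of polyA selection. The submitters' processing notes name the tools TopHat, Bowtie and FastQC. Their versions, the counter, its strand setting, the genome build and any filters are not given.

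Per the file headers the deposited table holds edgeR glmLRT results over all genes: a log2 fold change and an average log2 CPM, both made by the authors, a likelihood ratio score (1 degree of freedom) deposited beside them, and the deposited p-value and its Benjamini-Hochberg adjusted p-value. Recomputed, p and adjusted p differed by at most 6.38e-15 and 3.55e-15. The table holds 0 columns of other samples. It has no counts per sample, so nothing was refitted, and the threshold was an adjusted p under 0.05.

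The implied SE treats the likelihood ratio test as a Wald test, and ranges are 1.96 SE wide on each side. Library sizes were solved from the average log2 CPM of single-read genes with a prior count of 2 (dispersion 0.0533; 76 of 78 predicted levels of genes with 2 reads were found within 1e-05), a step tested on simulated data. Highest levels put the 3 libraries of a side at 1 level and give the other 6 libraries no read. The lowest levels rest on the Wald form and are approximate. They were checked for 128 list genes that could hold more than 3 reads on the lower side. The lowest lay above the highest for 1 of these, Jon99Ci. Among sparser list genes, left out of this check, it also did for LysB, CG5687, Zip42C.1, Zip42C.2, CG33124 and Fbp1. It did not for ZnT33D, CG31668 and CG9657. The limits cover counting error only. No fold is given where the lower side could hold 3 reads or fewer. Python 3.11.15 with numpy 2.4.6, scipy 1.17.1 and pandas 2.3.3 was used. Names of 99.70% of genes matched the Release 6 annotation, used for names and gene order alone.

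The members, lists and classes were chosen with earlier results of these data known. The SLC5 and MFS lists follow the names in the annotation, and genes whose annotation gives nothing but a CG number were left out of the urate list (CG11089 has the synonym atic and was kept); both changes were made after values were seen. Named are all members and, of each list, the called genes or otherwise the 3 with the smallest unadjusted p. Other genes, the neighbours included, were named after their values were seen. Alternatives tried were Holm's adjustment, a stricter threshold of 0.01, only genes averaging 1 CPM or more, only differences of 2-fold or more, another class for Drip, a weighted mean and subtraction of the median of genes at 16 CPM or more.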

Additional observations from a re-analysis of the deposited data

How the results depend on the processing

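Uro and Smvt passed the threshold with Holm's adjustment, with the stricter threshold of 0.01, among genes averaging 1 CPM or more and with differences of 2-fold or more, and Irk2 passed only in the last of these. The other 5 genes passed under none of these. Counts over all genes fell from 667 to 344 among genes averaging 1 CPM or more and to 295 with Holm's adjustment. The difference between the class medians, -1.41, became -0.68 with Drip in the tubule-restricted class, -1.51 as a weighted mean and -1.41 with the median of well expressed genes subtracted. With the 6 libraries outside the comparison at the mean level of both sides, an alternative added after seeing the data, the level of Uro would be 0.132 CPM on the positive and 2.82 CPM on the negative side, below the lowest limits from counting noise. No paired analysis was possible because the table holds no value per sample, and for the same reason leaving out a replicate and DESeq2 were not run. Depth limits Uro and Irk2 on the positive side, at 27.2 and 39.5 reads or fewer over 3 libraries.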
